A study of Mus musculus with 2 samples.

Results

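Nuclear receptor genes encode transcription factors that bind DNA through a zinc-finger domain and, in most cases, are switched by a small lipophilic ligand such as a steroid, retinoid, fatty acid derivative, thyroid hormone or sterol. The set described here held 39 genes of the 22028 protein-coding genes in the annotation. They were chosen by symbol alone, as the numbered receptor genes Nr0 to Nr6 with subgroup letters a to h, the retinoid, thyroid hormone, PPAR, ROR, estrogen-related and vitamin D receptor genes, each with at least 1 protein-coding transcript. The liver X receptor genes Nr1h2 and Nr1h3 were left out by that rule, and Nr1i2, Nr1i3, Esr1, Esr2, Pgr, Hnf4a and Hnf4g were among those that did not match it. The rule itself uses no measured value.

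The cells were macrophages grown from the bone marrow of C57BL/6J mice, in 1 condition with 2 replicates. They received lipid A, the part of lipopolysaccharide that TLR4 senses, at 100 ng/ml for 12 h, spent 12 h without it, and were given 100 ng/ml again for 75 min. Chromatin-bound RNA, rich in transcripts that polymerases are still extending, was sequenced without its ribosomal RNA, from 250 ng of RNA in replicate 1 and 500 ng in replicate 2. The labels give both replicates the same donor entry and record neither sex nor age. No unexposed cells and no cells without the second exposure were analysed here, so the values are levels in restimulated cells and none of them is a response to lipid A. As the labels do not say that the replicates came from separate cultures, their spread may be technical.

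Steroid receptors wait in the cytoplasm in a complex with the HSP90 chaperone and enter the nucleus with their hormone, whereas retinoid, thyroid hormone, PPAR and vitamin D receptors sit on DNA as partners of a retinoid X receptor and carry corepressors such as NCoR until a ligand exchanges them for coactivators. Orphan receptors such as the NR4A family act as constitutive activators, and the REV-ERB family acts as repressors. In macrophages the glucocorticoid receptor, the PPARs and the liver X receptors are known as brakes on inflammatory genes and as regulators of lipid handling, and the NR4A genes are known as early-response genes.

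Depth was 18388793 expected counts on annotated genes in replicate 1 and 17640464 in replicate 2, and the 39 receptor genes held 7817 and 7260 of them, 0.0425% and 0.0412%. A count of 0 allows up to 3 counts, 1.63e-05% of replicate 1 and 1.70e-05% of replicate 2. Levels are in TPM, a share of each library's transcripts that divides counts by length and can be compared between genes. The macrophage label was checked on 7 markers, all of which reached 1 TPM in both libraries, with summed levels of 1161 TPM in replicate 1 and 775.2 TPM in replicate 2. The 19 markers of B, T and NK cells, neutrophil precursors, dendritic cells, fibroblasts and erythroid cells had at most 1.04 TPM in either library, except the erythroid gene Alas2 with 5.19 TPM (replicate 1) and 1.24 TPM (replicate 2). Of these 19, Cd79a, Cd3e, Nkg7, Elane, Mpo, Ly6g and Cd209a were among those at 0 counts in both libraries. By the alignment-free program each of these marker lists outside macrophages had 1 gene at 1 TPM or more in both libraries. The T cell gene Cd3d, with 2 and 0 alignment-based counts, had 15.5 and 20.1 TPM, and Alas2 9.77 and 5.06 TPM. The others were Ms4a1 (1.31 and 1.53 TPM), Mpo (1.23 and 1.04 TPM), Zbtb46 (1.62 and 1.82 TPM) and Col1a1 (1.41 and 1.54 TPM).

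The NR4A genes are shown first by sequence, because 2 of them were among the 3 receptor genes past 2-fold between the libraries. These genes and the marked motif were picked with earlier results of these data known, so the matches below are a description. The 250 bases before the RefSeq start are given 5′ to 3′ on the strand of each gene, from RefSeq in GRCm38.p6. For Nr4a1 and Nr4a3 that start lies inside the gene as annotated in the deposited files, which begins farther upstream, so these windows serve 1 of several possible starts. They are chr15:101266596-101266845 on the plus strand for Nr4a1, chr2:57124004-57124253 on the minus strand for Nr4a2 and chr4:48045055-48045304 on the plus strand for Nr4a3. Capitals mark TGACG, the core of the element bound by the cAMP-response factor CREB, on either strand (CGTCA when read on the other strand).
Nr4a1: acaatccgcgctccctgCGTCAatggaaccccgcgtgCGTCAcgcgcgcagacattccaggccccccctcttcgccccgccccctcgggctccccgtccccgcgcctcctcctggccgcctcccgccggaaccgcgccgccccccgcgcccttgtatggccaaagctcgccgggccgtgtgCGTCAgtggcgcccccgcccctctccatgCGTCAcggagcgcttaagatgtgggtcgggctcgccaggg
Nr4a2: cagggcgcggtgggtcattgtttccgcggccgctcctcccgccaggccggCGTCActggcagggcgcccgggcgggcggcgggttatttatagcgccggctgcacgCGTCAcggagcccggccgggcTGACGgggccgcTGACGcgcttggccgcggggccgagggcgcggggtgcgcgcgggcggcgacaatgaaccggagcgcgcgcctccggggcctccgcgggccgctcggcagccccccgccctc
Nr4a3: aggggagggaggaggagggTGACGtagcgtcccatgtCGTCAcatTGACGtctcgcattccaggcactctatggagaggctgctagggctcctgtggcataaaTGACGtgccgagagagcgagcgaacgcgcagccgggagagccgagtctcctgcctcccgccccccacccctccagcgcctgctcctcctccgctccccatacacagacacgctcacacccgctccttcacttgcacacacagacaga
Each of the 3 windows held 4 copies of TGACG. Among 32851 such windows of 27025 genes, 17.8% held at least 1 copy and 45 windows of 44 genes (0.137%) held at least 4. Of the 53 windows of the receptor genes, 12 held at least 1 copy. Any relation of the copies to the difference between the libraries was not tested. The full palindrome TGACGTCA, which contains 2 overlapping copies of TGACG, was in 1.55% of windows and in none of these 3. The binding sequence of the NR4A proteins themselves, AAAGGTCA on either strand, was in 1.34% of windows and also in none of the 3. The copies lay 40, 69, 213 and 233 bases before the start of Nr4a1, 111, 123, 144 and 200 before that of Nr4a2, and 147, 205, 213 and 231 before that of Nr4a3, counted to the first base of the match. These windows were rich in G and C, at 74.4%, 80.0% and 63.6% for Nr4a1, Nr4a2 and Nr4a3, against a median of 52.4% over all windows, and the part of base composition in the matches was not tested. A match describes letters in a window and is no evidence of binding.

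Of the 39 receptor genes, 15 reached 1 TPM in both libraries (40.1% of all protein-coding genes did), 5 reached 10 TPM (17.9% of all protein-coding genes), and 15 had 0 expected counts in both libraries (34.6% of all protein-coding genes). By a program that assigns reads to transcripts without alignment, called alignment-free below, 21 of the 39 reached 1 TPM (51.8% of all protein-coding genes). The share at 1 TPM, like the share at 0, was therefore near that of protein-coding genes in general. The genes at 1 TPM differed between the programs. The 21 included Esrrg, Nr2e1, Nr2f2 and Rorb, each with at most 1 alignment-based count in a library, and left out Nr3c2 (1.13 and 0.991 alignment-free TPM). The median level over the 39 genes was 0.220 ± 0.127 TPM (SD between the medians of the libraries, n = 2). The median over all protein-coding genes was 0.29 TPM. Both library medians of the receptors were the value of Thrb, 0.31 TPM in replicate 1 and 0.13 TPM in replicate 2. Thrb had 4 counts in each library, near its limit for 0 counts of 0.230 and 0.0996 TPM. Its effective length, by which TPM divides counts, was 761.3 bases in replicate 1 and 1948 bases in replicate 2. This median and its SD thus describe 1 gene at few counts. Among genes at 1 TPM in both libraries the median was 4.96 TPM for the receptors and 9.36 TPM for protein-coding genes. The summed level of the receptors was 212.8 TPM in replicate 1 and 205.0 TPM in replicate 2, and it was concentrated in few genes. Nr3c1 and Esrra alone held 58.0% and 55.9% of it, and the 7 highest genes held 90.1% and 88.6%. These shares are alignment-based, and by the alignment-free program Esrrg, at 0 counts here, had 79.7 and 119.7 TPM.

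**Figure D1:**
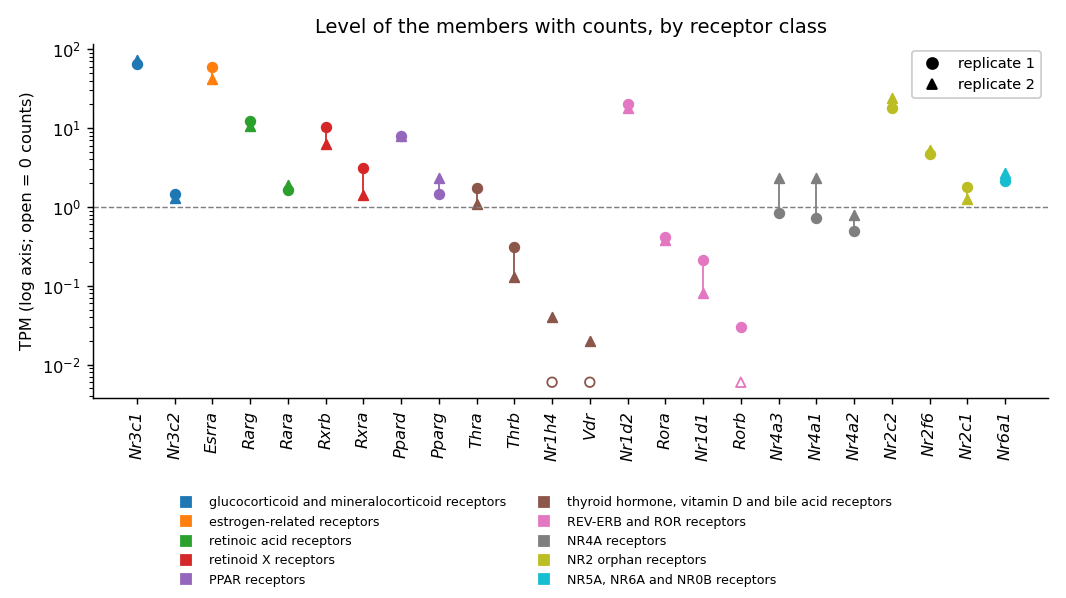
TPM of the 24 receptor genes with counts, on a log axis, with a circle for replicate 1, a triangle for replicate 2 and open symbols for a library at 0 counts; colours give the receptor class and the dashed line is 1 TPM. Nr3c1, Esrra, Nr2c2, Nr1d2 and Rarg stand above 10 TPM in both libraries, and Nr4a1 and Nr4a3 lie on different sides of 1 TPM in the 2 libraries.

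Among steroid receptors, the glucocorticoid receptor gene Nr3c1 (mm10 chromosome 18, 39410545 to 39519421, minus strand) was the highest of all 39 by alignment-based TPM. It had 2709 counts and 64.45 TPM in replicate 1 and 2936 counts and 72.66 TPM in replicate 2. Its mean of 68.6 ± 5.81 TPM (SD, n = 2, as for all later values of this form) exceeded that of 96.2% of protein-coding genes. By the alignment-free program Esrrg was higher in both libraries, at 79.7 and 119.7 TPM against 61.7 and 73.8 TPM for Nr3c1. The mineralocorticoid receptor gene Nr3c2, whose protein binds the same hormones, had 1.46 and 1.30 TPM in replicates 1 and 2. Nr3c1 thus stood 44.1-fold above Nr3c2 in replicate 1 and 55.9-fold in replicate 2, and the alignment-free program put it 54.4-fold and 74.5-fold above.

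The estrogen-related receptors are orphan relatives of the estrogen receptor that drive mitochondrial and oxidative genes. Esrra (chromosome 19, 6910977 to 6921813, minus strand) had 1774 counts and 58.99 TPM in replicate 1 and 1243 counts and 41.99 TPM in replicate 2. Neither library of Esrra reached the lower library of Nr3c1. By the alignment-free program the genes overlapped, at 61.7 and 73.8 TPM for Nr3c1 and 80.9 and 58.9 TPM for Esrra, so their order by TPM depends on the program. Of that Esrra level, 25.7 and 19.0 TPM lay on the 358-base isoform Esrra-203, from 121.6 and 82.6 counts. By alignment-free counts Nr3c1 was higher in both libraries, at 3659 and 3939 against 2503 and 1757. The Esrra relatives Esrrb and Esrrg had 0 alignment-based counts in both libraries. Trmt112, a methyltransferase cofactor gene on the opposite strand with 9.99 and 10.7 TPM in replicates 1 and 2, shares 73 exonic bases with Esrra. Whether the counting used strand is not stated in the sources, so reads in such overlaps could belong to either gene.

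In the retinoid branch, the genes of the common partner were at moderate level. Rxrb had 10.25 TPM in replicate 1 and 6.30 TPM in replicate 2, and Rxra (chromosome 2, 27676440 to 27762957, plus strand) had 3.12 and 1.40 TPM. Rxrb exceeded Rxra 3.29-fold and 4.50-fold in the 2 libraries by TPM. By counts the libraries gave 204 and 145 for Rxrb and 249 and 101 for Rxra. Of the 10 annotated isoforms of Rxrb, 6 are shorter than 1000 bases, and on isoforms of at least 1000 bases alone Rxrb had 4.14 and 3.71 TPM and Rxra 3.12 and 1.40 TPM. Rxrg was at 0. Of the retinoic acid receptors, which bind the vitamin A derivative retinoic acid, Rarg had 12.14 and 10.75 TPM in replicates 1 and 2, Rara 1.65 and 1.89 TPM, and Rarb 0 counts in both. Rarg exceeded Rara 7.36-fold and 5.69-fold in replicates 1 and 2, but 3.41-fold and 3.01-fold by the alignment-free program.

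The PPARs bind fatty acids and their derivatives. Ppard, the broadly expressed form, had 376 counts and 7.83 TPM in replicate 1 and 360 counts and 8.0 TPM in replicate 2, and 17.8 and 13.4 TPM by the alignment-free program. Pparg, the adipocyte form that is also known in alternatively activated and alveolar macrophages, had 39 and 45 counts and 1.47 and 2.30 TPM, and the liver form Ppara had 0 counts in both libraries.

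Of the other hormone receptors with retinoid X receptor partners, the thyroid hormone receptor gene Thra had 1.73 and 1.10 TPM in replicates 1 and 2, from 45 and 34 counts, and Thrb had 4 counts in each library. The vitamin D receptor gene Vdr had 0 counts in replicate 1 and 1 in replicate 2, as had the bile acid receptor gene Nr1h4, and Nr1h5 had 0 in both. Vdr, a gene known to be induced in human macrophages by Toll-like receptor ligands, had 6 and 11 counts in replicates 1 and 2 by the alignment-free program, or 0.0515 and 0.105 TPM.

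REV-ERB proteins are repressors that compete with ROR activators for the same sites and form part of the circadian clock. Nr1d2, which encodes REV-ERB beta (chromosome 14, 18204054 to 18239127, minus strand), had 686 counts and 20.04 TPM in replicate 1 and 633 counts and 17.81 TPM in replicate 2. Its paralog Nr1d1, which encodes REV-ERB alpha (chromosome 11, 98767932 to 98775333, minus strand), had 5 and 3 counts and 0.21 and 0.08 TPM. The ratio of Nr1d2 to Nr1d1 was 95.4 in replicate 1 and 222.6 in replicate 2, and 93.2 and 121.2 by the alignment-free program, but its size rests on the few counts of Nr1d1. Nr1d1 and Thra lie tail to tail on opposite strands and share 263 exonic bases, so the few reads there could not be assigned with certainty. Rora had 40 and 42 counts (0.42 and 0.38 TPM) and Rorb 1 and 0 counts in replicates 1 and 2.

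Among the NR2 orphan receptors, Nr2c2 (testicular receptor 4, chromosome 6, 92091390 to 92174294, plus strand) had the highest alignment-based mean after Nr3c1 and Esrra. It had 18.11 TPM in replicate 1 and 24.19 TPM in replicate 2. Its libraries overlapped those of Nr1d2, so the order of Nr2c2 and Nr1d2 is not resolved. Nr2c2 shares 4590 exonic bases with Mrps25 on the opposite strand, which had 222.9 and 173.7 counts, and the deposited posterior SD of its 907.1 and 960.3 counts was 12.59 and 10.82. Nr2c1, the other testicular receptor, had 1.80 and 1.26 TPM, so Nr2c2 was 10.1-fold and 19.2-fold higher, against 5.69-fold and 7.64-fold by the alignment-free program. Nr2f6, a COUP-TF relative that represses cytokine genes in T cells, had 49.3 and 43.2 counts and 4.65 and 5.26 TPM. It shares 1622 exonic bases with Ocel1 on the opposite strand, which had 242.7 and 189.8 counts. The COUP-TF genes Nr2f1 and Nr2f2, the neural gene Nr2e1 and the photoreceptor gene Nr2e3 were at 0 counts in both libraries.

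Of the remaining orphans, Nr6a1, the germ cell nuclear factor gene, had 117 counts and 2.12 TPM in replicate 1 and 135 counts and 2.68 TPM in replicate 2. Nr5a1 and Nr5a2, which control steroid and bile acid synthesis, and Nr0b1 and Nr0b2, which lack the DNA-binding domain, were at 0. For the 15 receptor genes at 0 counts, 3 counts would correspond to between 0.058 and 0.217 TPM, depending on length.

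The NR4A genes were low by alignment-based counts. Nr4a3 (chromosome 4, 48045153 to 48086447, plus strand) had 78 counts and 2.31 TPM in replicate 2 and 26 counts and 0.83 TPM in replicate 1. Nr4a1 (chromosome 15, 101254269 to 101274795, plus strand) had 49 counts and 2.35 TPM in replicate 2 and 20 counts and 0.72 TPM in replicate 1. Nr4a2 had 28 counts and 0.79 TPM in replicate 2 and 23 counts and 0.49 TPM in replicate 1. Nr4a1 and Nr4a3 were thus above 1 TPM in replicate 2 alone. By the alignment-free program Nr4a1 had 3.63 TPM in replicate 2 and 1.72 TPM in replicate 1, and Nr4a3 3.09 and 1.23 TPM, above 1 TPM in both libraries. Of this level of Nr4a1, the 344-base isoform Nr4a1-203 held 59.33% in replicate 2 from 8.74 counts. In replicate 1 it held 63.55% from 4.83 counts.

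The 19 receptor genes with 10 counts or more in both libraries were then compared between them, as a log2 ratio after TMM scaling in which positive values are higher in replicate 2. These are single libraries of 1 condition, so no test was made, and the 95% intervals cover counting error only. Past 2-fold were 3 of the 19 genes (7.29% of 13247 genes tested were, and 10.9% of the 5415 genes with a summed count of at least 20 and below 200). The second share is a background for Nr4a3 and Nr4a1, which lie in that count range. Rxra, with 249 counts in replicate 1 alone, lies above it, as do the most deeply counted of the 19. Nr4a3 had a log2 ratio of 1.72 (interval 1.06 to 2.42) and Nr4a1 one of 1.43 (0.65 to 2.26), both higher in replicate 2 (4.09% of all genes tested were past 2-fold in this direction). Rxra, with 101 counts in replicate 2 and 249 in replicate 1, had a log2 ratio of -1.17 (-1.52 to -0.83), the only receptor past 2-fold lower (3.20% of all genes tested). The alignment-free program gave 1.31, 1.23 and -1.26 for Nr4a3, Nr4a1 and Rxra.

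The other 16 genes lay between -0.44 (Nr2c1) and 0.42 (Nr4a2). For Nr4a2 the interval ran from -0.43 to 1.28 and the alignment-free value was -0.04, so a difference of this gene was not detectable at its depth. For the most deeply counted genes the intervals were narrow and did not include 0, with 0.25 for Nr3c1 (0.17 to 0.33), -0.38 for Esrra (-0.49 to -0.27) and 0.21 for Nr2c2 (0.08 to 0.35, and 0.02 by the alignment-free program). In 11 of the 19 genes the interval included 0 (52.4% of the 13247 genes tested). The median absolute log2 ratio was 0.32 for the receptors and 0.32 for all genes tested.

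**Figure D2:**
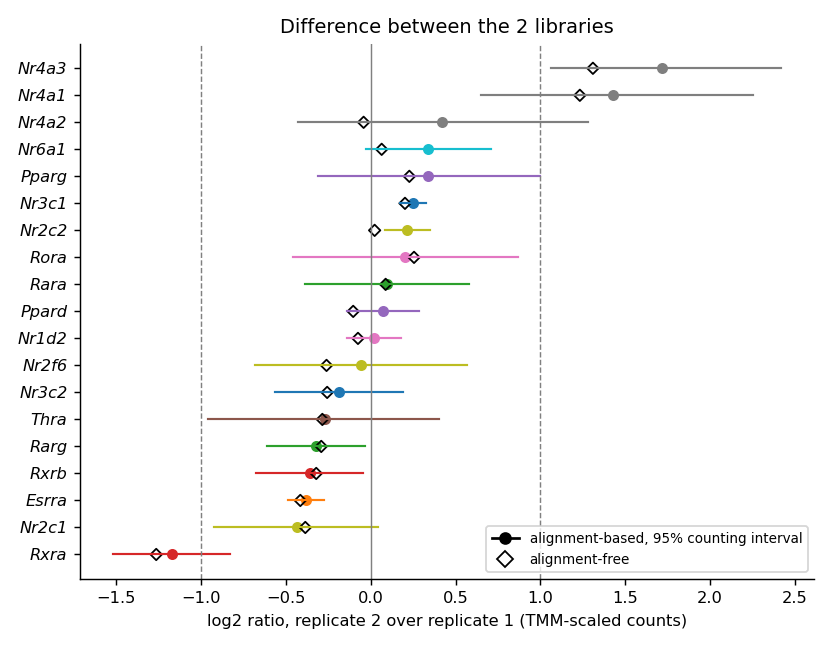
TMM-scaled counts of replicate 2 over replicate 1, as log2, for the 19 receptor genes compared; filled circles and lines give the alignment-based value with its 95% counting interval, open diamonds the alignment-free value, dashed lines 2-fold. Nr4a3 and Nr4a1 lie beyond 2-fold on the right and Rxra on the left, while Nr4a2 and 15 other genes lie inside.

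Other genes also differed between the libraries. Of the 7 macrophage markers 2 were past 2-fold lower in replicate 2, the integrin gene Itgam at a log2 ratio of -1.65 and the surface marker gene Adgre1 at -1.28, with a median of -0.87 over the list, while Msr1 and Cd68 were at 0.31 and 0.08. Of 53 genes compared from the lists of receptor partners, targets and clock genes given below, 3 were past 2-fold higher in replicate 2 (Dusp1 at 1.58, Bhlhe40 at 1.21 and Tsc22d3 at 1.10) and 3 lower (Per2 at -1.80, Per1 at -1.18 and Kat2b at -1.10). Of all 13247 genes tested, 4.09% were past 2-fold higher in replicate 2 and 3.20% lower. The libraries also differed in RNA input, 500 ng against 250 ng. The part of these differences in the ratios of Rxra and the NR4A genes cannot be told apart with 1 library on each side.

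Isoforms annotated as retaining an intron can collect reads of precursor RNA that is not yet spliced. They were assigned 24.2 ± 2.51% of the TPM of the receptors, against 37.7 ± 0.251% for all other protein-coding genes. By counts the gap was smaller, at 19.8 ± 1.90% against 25.0 ± 0.637%. By alignment-free TPM the shares were 14.05 ± 2.15% and 33.8 ± 0.262%. Only annotated isoforms can receive reads, and 7 of the 15 receptors at 1 TPM have such an isoform (65.5% of protein-coding genes at 1 TPM do). Within those 7 genes the median share was 46.6%, close to the 45.5% over the 5783 protein-coding genes that have one.

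The 7 genes differed widely. Nr1d2 had 65.2% of its TPM on retained-intron isoforms in replicate 1 and 58.2% in replicate 2, Ppard 63.7% and 46.4%, Rxrb 59.6% and 41.1%, and Esrra 42.5% and 50.7%. Nr2c2 had 27.97% and 25.56%, Nr6a1 13.7% and 11.2%, and Pparg 9.46% and 40.4%, from 1.61 and 9.72 counts, too few to give a share. By counts the order changed, since TPM divides by length and a short isoform turns few reads into a high TPM. Esrra then had 54.1% and 59.6% and Ppard 60.8% and 48.3%, but Nr1d2 only 23.2% and 19.6% and Rxrb 26.14% and 15.04%. In Nr1d2 the isoform Nr1d2-203, of 687 bases, took 46.7% and 39.2% of the TPM from 68.9 and 48.4 counts, whereas the protein-coding isoform Nr1d2-201, of 4663 bases, took 34.8% and 41.8% from 526.7 and 509.1 counts.

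**Figure D3:**
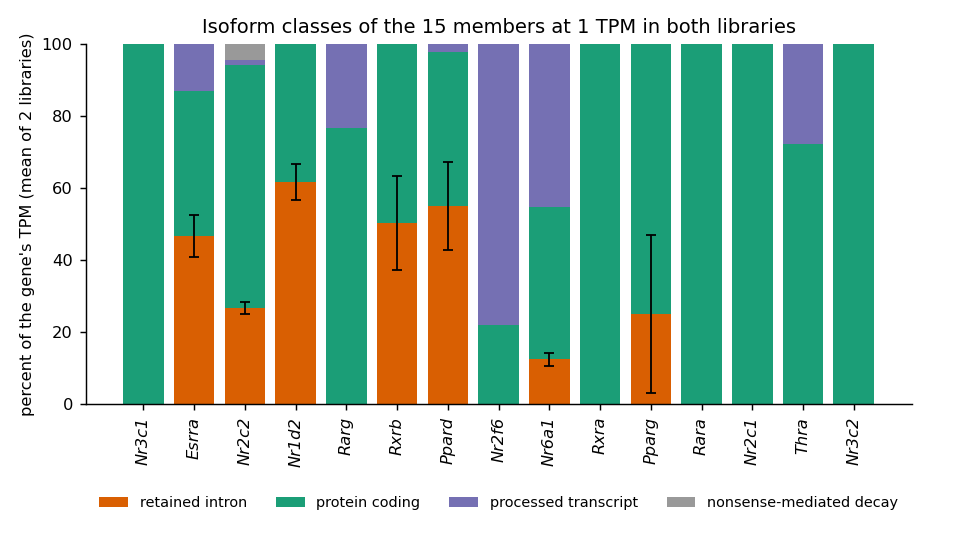
Share of each gene's TPM by annotated isoform class, as the mean of the 2 libraries, for the 15 receptor genes at 1 TPM in both, in order of level; error bars give the SD (n = 2) of the retained-intron share. Nr1d2, Ppard, Rxrb and Esrra have the highest retained-intron shares, and 8 genes have no such isoform in the annotation.

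The same effect of length bears on some levels. The 427-base processed transcript Nr2f6-208 held 75.3% and 79.7% of the TPM of Nr2f6 from 10.5 and 12.5 counts, and on isoforms of at least 1000 bases alone Nr2f6 had 1.15 and 1.00 TPM. On that scale Rarg had 5.28 and 4.17 TPM and Nr1d2 10.68 and 10.83 TPM, while Nr3c1 had 59.49 and 65.13 TPM and Nr2c2 18.09 and 23.89 TPM. In Nr3c1 all 9 isoforms are annotated as protein coding, and Nr3c1-208, of 1891 bases, held 59.7% and 55.4% of its TPM, ahead of Nr3c1-203, of 6436 bases, with 18.8% and 15.8%. Isoform assignment was less stable than the gene's level, as Nr3c1-204, of 6327 bases, was given 0.02 counts in replicate 1 and 498.5 in replicate 2.

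The programs were next compared on the genes at 0. Of the 15 receptors at 0 expected counts, 3 reached 1 TPM in both libraries by the alignment-free program (12.3% of all protein-coding genes at 0 did), 9 had estimated counts above 0 in both libraries (33.8% of those genes), and 6 were at 0 in both programs (58.1%), among them Esrrb, Nr0b1, Nr0b2, Nr5a1 and Nr5a2. Esrrg had 673 and 916 alignment-free counts, or 79.7 and 119.7 TPM, on the 507-base processed transcript Esrrg-205, against 0 alignment-based counts in both libraries. Nr2e1 had 115.1 and 174.7 alignment-free counts (1.34 and 2.25 TPM) and Nr2f2 101.0 and 112.0 (1.31 and 1.45 TPM). Rorb, with 1 and 0 alignment-based counts, had 318.8 and 414.7 alignment-free counts.

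Among the 15 genes at 1 TPM the alignment-free mean was 1.38 times the alignment-based one at the median, against 1.27 times over protein-coding genes at 1 TPM, and it ranged from 0.52 times for Nr2f6 to 3.85 times for Nr6a1. Nr4a2 had 7.65 and 6.83 TPM by the alignment-free program, of which the 182-base isoform Nr4a2-204 held 74.5% and 75.1% from 7 and 6 counts, against 0.49 and 0.79 TPM by alignment. For 7 of the 15 genes the programs' means were over 1.5 times apart. In replicates 1 and 2 the alignment-free levels of these were 19.1 and 18.4 TPM for Rarg, 17.8 and 13.4 TPM for Ppard, 2.24 and 2.92 TPM for Nr2f6, and 10.1 and 8.36 TPM for Nr6a1. Those of the other 3 were 3.87 and 3.46 TPM for Pparg, 5.60 and 6.12 TPM for Rara, and 3.94 and 3.13 TPM for Nr2c1. The levels of these 7 genes and of Nr4a2, and any level of Esrrg, Nr2e1, Nr2f2 and Rorb, therefore depend on the program.

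**Figure D4:**
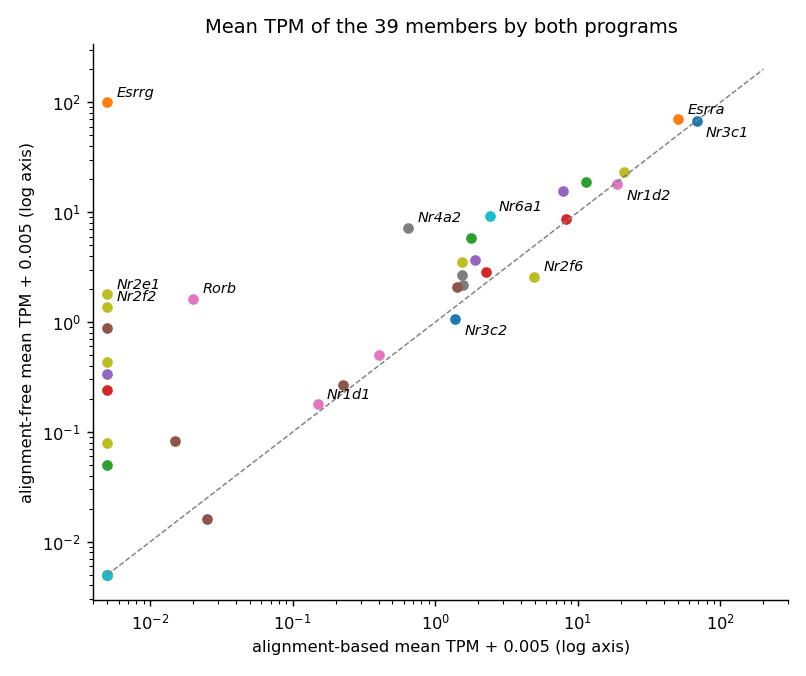
Mean TPM of the 39 receptor genes by the alignment-free program (vertical) against the alignment-based one (horizontal), both with 0.005 added and on log axes; the dashed line is equality. Nr3c1 and Nr1d2 lie close to the line, while Esrrg, at 0 by alignment, has 79.7 and 119.7 TPM by the alignment-free program in replicates 1 and 2.

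The genes that work with the receptors were given by 8 lists of 76 genes in all, of which 47 reached 1 TPM in both libraries, against 40.1% of all protein-coding genes. All 8 corepressor genes reached 1 TPM, with a median of 16.2 ± 1.80 TPM, led by Ncor1 (101.1 ± 13.4 TPM), which encodes NCoR, with Nrip1 at a lower level (22.2 ± 3.92 TPM), with Tbl1xr1 lowest at 6.72 ± 2.65 TPM. Of 11 coactivator genes 10 reached 1 TPM, with a median of 19.3 ± 1.02 TPM. The acetyltransferase genes Ep300 (37.0 ± 7.03 TPM) and Crebbp (28.4 ± 4.11 TPM) and the steroid receptor coactivator gene Ncoa3 (26.4 ± 0.269 TPM) led, and Ppargc1a, the partner of PPAR gamma and the estrogen-related receptors in mitochondrial programmes, had 0 counts in both libraries, but 2.21 and 2.06 TPM by the alignment-free program. Its relative Ppargc1b had 1.57 and 2.73 TPM in replicates 1 and 2.

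Chaperones of the steroid receptors reached 1 TPM in 6 of 7 genes, led by Hspa8 (83.9 ± 1.43 TPM), Hsp90ab1 (54.4 ± 2.63 TPM) and Hsp90aa1 (24.4 ± 6.27 TPM), with Fkbp4 lowest at 0.685 ± 0.120 TPM. Of 7 known glucocorticoid receptor targets 6 reached 1 TPM. Dusp1, a phosphatase that dampens MAP kinases and also an early-response gene, had 95.8 ± 66.5 TPM, the mRNA decay factor gene Zfp36 50.6 ± 16.2 TPM and the kinase gene Sgk1 19.4 ± 1.70 TPM, and Klf9 was lowest at 0.20 ± 0.141 TPM. Tsc22d3 and Fkbp5, both widely used as markers of glucocorticoid action, had 1.74 and 3.98 TPM and 1.22 and 1.03 TPM in replicates 1 and 2. By the alignment-free program Tsc22d3 had 2.85 and 4.73 TPM. Fkbp5, with 29 and 33 alignment-based counts, had 5.62 and 5.54 TPM by that program, so its level depends on the program.

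Among PPAR targets, the lipid droplet gene Plin2 (53.6 ± 7.88 TPM), the fatty acid carrier gene Fabp4 (14.3 ± 2.92 TPM) and the lipase gene Lpl (13.6 ± 4.31 TPM) led the 6 of 9 that reached 1 TPM. Angptl4 and Pdk4 were among those with 0 alignment-based counts in both libraries. By the alignment-free program 7 of the 9 reached 1 TPM. Pdk4 then had 1.67 and 2.63 TPM, and Angptl4 0.91 and 0.98 TPM, in replicates 1 and 2. Of 14 clock genes 10 reached 1 TPM, led by Clock (25.8 ± 4.59 TPM), Tef (14.3 ± 4.21 TPM) and Cry1 (7.14 ± 2.07 TPM), with Npas2 lowest at 0.205 ± 0.290 TPM. Arntl, a direct target of the REV-ERB proteins, had 1.78 and 1.5 TPM in replicates 1 and 2.

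Genes of enzymes that make or break down receptor ligands were low. None of the 12 reached 1 TPM in both libraries, and 4 had 0 counts in both, namely Aldh1a1, Aldh1a2, Cyp24a1 and Dio3. The retinol dehydrogenase gene Rdh10 (0.81 ± 0.0141 TPM), the thyroid hormone activating gene Dio2 (0.715 ± 0.0919 TPM) and the retinoic acid degrading gene Cyp26a1 (0.225 ± 0.205 TPM) were highest. By the alignment-free program 1 of the 12, the retinaldehyde dehydrogenase gene Aldh1a3, reached 1 TPM, with 2.84 TPM (replicate 1) and 2.61 TPM (replicate 2).

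Of the 10 nuclear receptor genes outside the rule, 3 reached 1 TPM. The oxysterol receptor genes Nr1h3 (96.94 and 53.01 TPM in replicates 1 and 2) and Nr1h2 (62.69 and 57.77 TPM) overlapped Esrra in level, and Nr1h3 also overlapped Nr3c1. The estrogen receptor gene Esr1 had 5.61 and 7.77 TPM. Esr2, Pgr, Hnf4a and Hnf4g had 0 counts in both libraries.

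**Figure D5:**
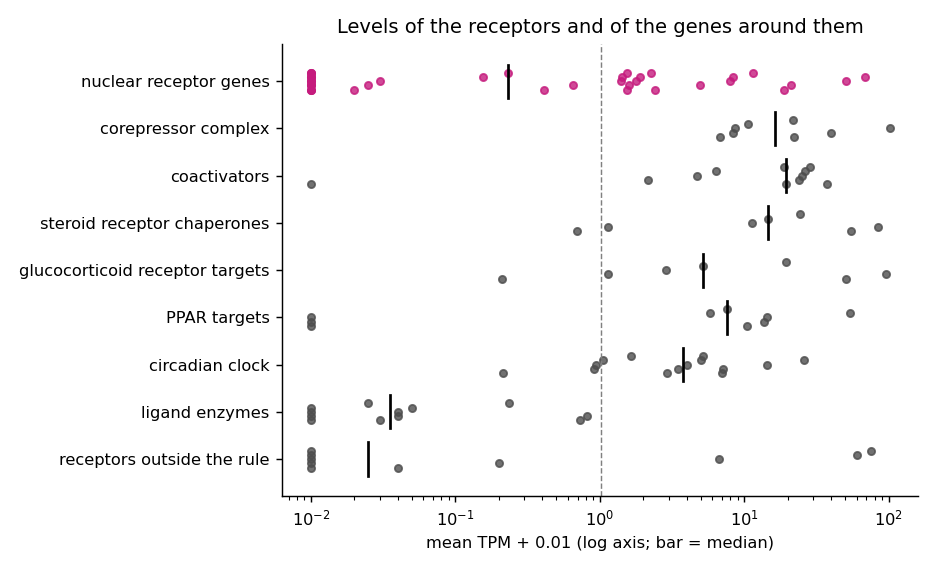
Mean TPM, with 0.01 added and on a log axis, of the 39 nuclear receptor genes (pink, top) and of the genes of 8 lists around them (grey); each point is a gene, black bars are medians and the dashed line marks 1 TPM. The corepressor list lies wholly above 1 TPM with a median of 16.2 TPM, while all 12 ligand enzymes lie below 1 TPM.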

How the data were processed

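RNA of the chromatin fraction was measured in 2 libraries of 1 group. Per the submitters' description files, expected counts and TPM per gene and per transcript were deposited from alignments to the mm10 transcriptome with GENCODE M21 (alignment-based), and estimated counts and TPM per transcript were deposited from the reads without alignment (alignment-free, summed per gene here). The deposited posterior SD of the count and the effective length are further scores in the alignment-based gene table, per the file headers. The column names are those of RSEM and kallisto; programs, versions and strand setting are not given in the sources. TPM was scaled by the authors over all entries, of which protein-coding genes held 25.93% and 27.98%.

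Spike-in and numbered entries (26345, with 0.305% and 0.262% of counts) were left out, which left 55536 genes. Counts were rounded for ratios, which used TMM scaling (edgeR 4.0.16) and a minimum of 10 counts per library, with exact binomial 95% intervals. The ratio step was tested on simulated counts with planted changes and counting error alone. That checks the calculation and leaves out any other difference between real libraries. DESeq2 1.42.0 size factors were an alternative. With 1 group, no test between conditions exists. The files hold no molecular identifiers, so the intervals and the limits for 0 counts reflect counting error alone. Members at a mean of 1 TPM are given with both libraries, and of each list the 3 highest and the lowest gene, apart from some genes not reported here. The members, lists, promoter motifs and comparisons were chosen with earlier results of these data known; genes named beyond these rules were chosen after their values were seen. Of the 39 receptor genes 35 matched the RefSeq promoter table.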

Additional observations from a re-analysis of the deposited data

How the results depend on the processing

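The number of receptor genes at 1 TPM in both libraries (15) stayed between 15 and 21 under the alternatives tried, the number of list genes at 1 TPM (47) between 47 and 53, and the number of receptors past 2-fold between the libraries (3) was 3 under each scaling, without the count filter and by the alignment-free program. The median level of the receptors was the least stable value. It was 0.22 TPM, but 1.622 TPM by the alignment-free program, 0.83 when TPM was rescaled to protein-coding genes, 2.26 among genes with 10 counts or more in both libraries, and 0.085 on isoforms of at least 1000 bases, an alternative chosen after seeing the data. Leaving out a replicate gave 0.13 to 0.31 TPM, the levels of Thrb, which had 4 counts in each library. The retained-intron share of 24.2% was 14.05% by the alignment-free program, 19.79% by counts and 17.38% without Esrra (also chosen after seeing the data), and 22.42% to 25.97% with a replicate left out. Over other protein-coding genes the share of 37.72% was 33.79% by the alignment-free program and 24.98% by counts. The cause of these shifts was not tested, except that dropping genes or isoforms changes the values by construction. Of the 17 single levels, 10 moved by more than the spread between replicates under the alignment-free program and 7 with isoforms of at least 1000 bases alone. TPM over protein-coding genes alone multiplies every level of a library by 1 factor. All 19 library ratios kept their side of 2-fold. No paired analysis was possible because the series has 1 group. Genes under about 100 counts, such as the NR4A genes, Pparg, Rara and Thra, are limited by depth.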
